A study of Bos taurus with 8 samples.

Results

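The miRNAs described here are both arms of 3 hairpins, miR-21, miR-22 and miR-423, which are listed in the tables as bta-miR-21-5p, bta-miR-21-3p, bta-miR-22-5p, bta-miR-22-3p, bta-miR-423-5p and bta-miR-423-3p. They were chosen by name, as 6 of the 534 miRNAs listed, and with the serum and exosome values of these libraries already known. All 6 were expressed and had at least 20 reads in every library. Small RNA was sequenced from the sera of 4 healthy lactating Holstein cows (Bos taurus) and from exosomes isolated from the same sera, giving 8 libraries, 1 for each sample type of each cow. The labels give no treatment, genotype or age, and the replicate number of a library was taken as the number of its cow. Sera and exosomes were extracted with different kits from different serum volumes, and the effects of sample type and of extraction cannot be told apart. The tables hold miRNAs only, so the exosome label could not be checked against vesicle proteins.

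A miRNA hairpin is cut by Drosha and Dicer into a short duplex, of which 1 strand is usually kept by an Argonaute protein and the other is mostly degraded. The mature sequence from the 5' side of the hairpin is named 5p and that from the 3' side 3p, and both strands are made in equal number before selection. The arms have different seeds and therefore different targets. MiR-21-5p is known for its abundance in many tissues. MiR-22-3p is abundant in blood, heart and muscle. MiR-423 is unusual in giving appreciable amounts of both arms, and miR-423-5p has been studied as a circulating marker of heart failure. In the RefSeq annotation of ARS-UCD2.0 the genes MIR21, MIR22 and MIR423 lie on the same chromosome. MIR21 lies between VMP1 and TUBD1, MIR423 within the span of NSRP1, and MIR22 within the span of TLCD2, where it overlaps MIR3600. MiR-3600 was listed at 0 RPM in all 8 libraries.

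The values are RPM, the reads of a miRNA scaled to a fixed total of miRNA reads per library. The sera libraries held 264769 to 590162 miRNA reads and the exosome libraries 60682 to 157710, so the arms with few reads were measured with less precision in exosomes. The libraries of cow 1 stood apart from the others by the muscle miRNAs on a list of 6, of which 5 had reads and miR-206 had none. Their summed level was 23097 RPM in the serum and 26301 RPM in the exosomes of cow 1, and 163.7 to 342.4 RPM in the other 6 libraries. Almost all of the sum in cow 1 came from miR-133a, with 21761 RPM in the serum and 25279 RPM in the exosomes. Both libraries of cow 1 also exceeded all others in miR-499, miR-208b and miR-133b, at far lower levels. MiR-1 was read only in the serum of cow 1, at 3.7 RPM, so it adds nothing to this separation. The differences in arm ratio and in level between sera and exosomes are therefore also given without cow 1.

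Together the 3 hairpins took 19.1% ± 3.02 of all miRNA reads of the sera and 17.3% ± 2.98 of those of the exosomes (SD, n = 4). MiR-22-3p was the second most abundant miRNA in 6 of 8 libraries, the first in the serum of cow 3 and the third in the exosomes of cow 2. MiR-423-5p ranked 5 to 8 in sera and 4 to 9 in exosomes, and miR-21-5p ranked 8 to 14 and 6 to 13. MiR-423-3p, although the lesser arm of its hairpin, still ranked 19 to 25 in sera and 16 to 21 in exosomes. The lesser arms of the other hairpins lay far below. MiR-22-5p ranked 83 to 103 in sera and 89 to 117 in exosomes. MiR-21-3p ranked 113 to 127 in sera and 68 to 87 in exosomes, so it was placed above miR-22-5p in all exosome libraries and below it in all sera libraries.

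The dominant arm of each hairpin was the same in all 8 libraries, and the degree of dominance differed widely between the hairpins. MiR-22 was the most one-sided, with 158 to 258 reads of miR-22-3p for each read of miR-22-5p in sera and 230 to 407 in exosomes. MiR-21 had 68.7 to 101 reads of miR-21-5p for each read of miR-21-3p in sera and 23.1 to 47.1 in exosomes. MiR-423 had 3.02 to 3.33 reads of miR-423-5p for each read of miR-423-3p in sera and 2.49 to 3.55 in exosomes. Both arms were listed for 47 hairpins. Of the 15 hairpins with at least 100 reads pooled over each sample type, all 15 had the same dominant arm in sera and exosomes, and the median share of the lesser arm was 3.14% in sera and 3.36% in exosomes. By that measure miR-21 and miR-22 were more one-sided in sera than the median hairpin, and miR-423 was less so.

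The arm ratio is given as the log2 of 5p over 3p in a library. Both arms are divided by the same number of reads, so the ratio does not depend on the denominator of RPM. For cows 1 to 4 in order, the ratio of miR-21 was 6.54, 6.58, 6.10 and 6.65 in sera and 4.53, 5.07, 4.87 and 5.56 in exosomes. Every exosome library was below every serum library, so relatively more of miR-21 was the 3p arm in exosomes. The difference of sera minus exosomes within cows was 1.46 ± 0.41 on the log2 scale (SD, n = 4 cows), or 2.76-fold, and was positive in 4 of 4 cows, from 1.10 in cow 4 to 2.01 in cow 1. Without cow 1 it was 1.28. Expressed as a share of the reads of both arms, miR-21-3p was 1.13% ± 0.21 in sera and 3.11% ± 0.87 in exosomes (SD, n = 4). In the serum of cow 4, which had the lowest share, it was 0.981% (95% Wilson interval 0.812% to 1.18%). In the exosomes of cow 1, which had the highest, it was 4.16% (95% Wilson interval 3.36% to 5.14%). The highest serum share, 1.43% in cow 3 (1.19% to 1.73%), and the lowest exosome share, 2.08% in cow 4 (1.68% to 2.57%), had Wilson intervals that overlapped slightly. These intervals cover counting error only, because PCR copies are counted as separate reads.

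In miR-22 the ratio was -7.39, -7.30, -8.01 and -7.71 in sera, in the order of the cows, and -8.63, -7.84, -8.66 and -8.42 in exosomes. The value was lower in exosomes within each cow, but the groups overlapped, because the exosomes of cow 2 lay above the serum of cow 3. The difference of sera minus exosomes was 0.78 ± 0.31 (SD, n = 4 cows), or 1.72-fold, and ranged from 0.54 in cow 2 to 1.24 in cow 1. Without cow 1 it was 0.63. MiR-22-5p made up 0.520% ± 0.11 of the reads of both arms in sera and 0.305% ± 0.087 in exosomes (SD, n = 4). The exosome shares rested on 20, 45, 28 and 43 reads of miR-22-5p for cows 1 to 4, against 143 to 392 in sera. For cow 1, with 20 reads, the share was 0.251% (95% Wilson interval 0.163% to 0.388%).

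In miR-423 the ratio was 1.65, 1.59, 1.68 and 1.74 in sera, and 1.32, 1.35, 1.83 and 1.48 in exosomes. The exosomes of cow 3 were above all sera and the other exosomes were below all sera. The difference was 0.17 ± 0.22 (SD, n = 4 cows), smaller than its spread between cows, and positive in 3 of 4 cows. Without cow 1 it was 0.12. MiR-423-3p made up 24.0% ± 0.75 of the reads of both arms in sera and 26.3% ± 3.02 in exosomes (SD, n = 4), and the exosome values ran from 21.99% in cow 3 to 28.6% in cow 1. In each of the 3 hairpins cow 1 had the largest difference between sera and exosomes, and its exosome library was also the shallowest.

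**Figure D1:**
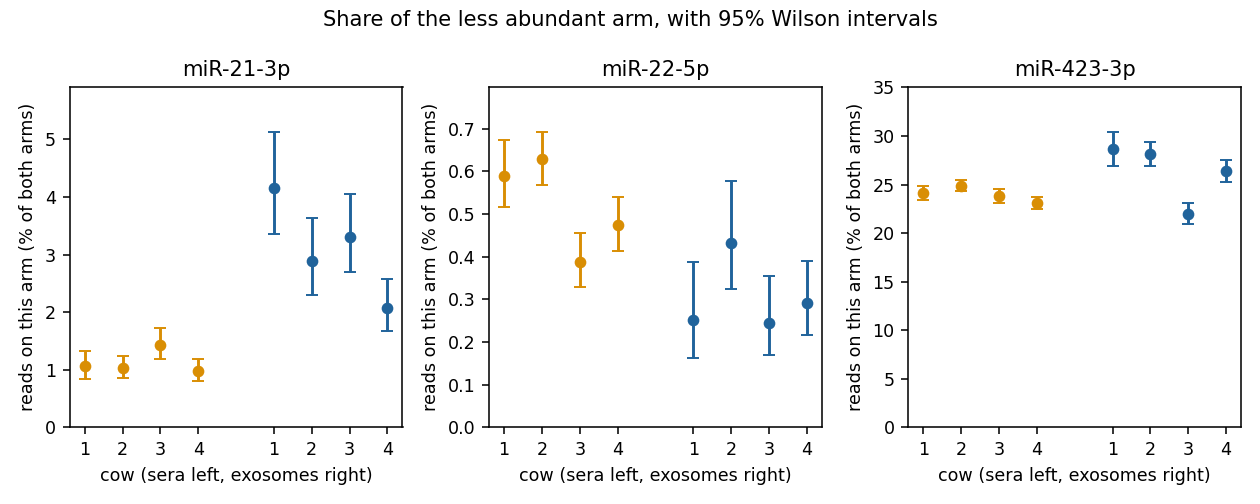
Share of the less abundant arm among the reads of both arms (%), by cow, in sera (orange) and exosomes (blue). Points are libraries and bars are 95% Wilson intervals for counting error. MiR-21-3p lies at 0.981% to 1.43% in sera and 2.08% to 4.16% in exosomes, miR-22-5p overlaps between the sample types, and miR-423-3p stands apart in the exosomes of cow 3 at 21.99%.

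The spread of the ratios between libraries of one sample type was compared with counting noise. The chi-square of the reads of both arms over the 4 libraries, per degree of freedom, is about 1 when libraries differ by counting noise only and every read is an independent molecule. With 1 library per cow, and PCR copies counted as reads, the cow and the library preparation cannot be told apart in it. It was 3.22 in sera and 7.31 in exosomes for miR-21, and 10.3 and 2.59 for miR-22. For miR-423 it was 6.28 in sera and 22.5 in exosomes, where the library of cow 3 lay apart. On the log2 scale, however, miR-423 had the narrowest range between cows, 0.14 in sera and 0.51 in exosomes. The ranges were 0.55 and 1.03 for miR-21, and 0.70 and 0.82 for miR-22.

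The levels in RPM describe how each difference in ratio was divided between the arms. For miR-21-3p, cows 1 to 4 had 280.7, 201.6, 404.1 and 240.0 RPM in sera, and 1335, 545.8, 868.8 and 526.3 RPM in exosomes. All exosome libraries were above all sera. The means were 282 ± 87.8 and 819 ± 378 RPM (SD, n = 4). The log2 fold change (FC) of sera over exosomes was -1.48 (standard error 0.33), or 2.78-fold higher in exosomes. Its partner miR-21-5p was at 26215, 19354, 27783 and 24228 RPM in sera, and 30783, 18308, 25352 and 24792 RPM in exosomes. These ranges overlapped almost completely, with means of 24395 ± 3662 and 24809 ± 5107 RPM (SD, n = 4) and a log2 FC of -0.01 (standard error 0.22). It was 0.060 without cow 1, and with 1 library left out it took either sign, from -0.15 without the exosomes of cow 2 to 0.099 without those of cow 1. In RPM the difference in the miR-21 ratio thus lay almost wholly in the lesser arm. With DESeq2's scaling the log2 FC was -0.34 for miR-21-5p and -1.84 for miR-21-3p, so this division depended on the scaling.

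For miR-22-5p, cows 1 to 4 had 808.4, 664.2, 540.1 and 480.0 RPM in sera, and 329.6, 350.9, 273.3 and 272.7 RPM in exosomes. All sera were above all exosomes. The means were 623 ± 145 and 307 ± 39.8 RPM (SD, n = 4), and the log2 FC was 1.001 with a standard error of 0.25. Its partner miR-22-3p was at 136183, 105054, 139084 and 100932 RPM in sera, and 130928, 80779, 111227 and 93564 RPM in exosomes. It was higher in the serum of each cow, but the sample types overlapped, with means of 120313 ± 20105 and 104125 ± 21798 RPM (SD, n = 4) and a log2 FC of 0.22 (standard error 0.26). That of miR-22-3p became -0.11 with DESeq2's scaling, so its direction depended on the scaling. Without cow 1 it was 0.27. Leaving out 1 library gave 0.10 without the exosomes of cow 2, 0.14 without the serum of cow 3 and 0.33 without the exosomes of cow 1. Cows 1 and 3 had the higher miR-22-3p in both sample types, and cows 2 and 4 the lower.

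For miR-423-5p, cows 1 to 4 had 36332, 29849, 41738 and 30556 RPM in sera, and 28641, 27906, 42289 and 28889 RPM in exosomes. Cow 3 was highest in both sample types. The log2 FC was 0.13 (standard error 0.22), and it was -0.11 with edgeR's scaling and -0.23 with that of DESeq2. Without cow 1 it was 0.053. Leaving out 1 library at a time gave 0.031 without the serum of cow 3 and 0.27 without the exosomes of cow 3, the lowest and highest. For miR-423-3p the level was 11547, 9897, 13049 and 9169 RPM in sera, and 11486, 10932, 11919 and 10354 RPM in exosomes, with a log2 FC of -0.05 (standard error 0.18). It was -0.063 without cow 1, and from -0.14 without the serum of cow 3 to 0.034 without that of cow 4. It had the smallest spread between cows of the 6 arms in exosomes relative to its mean, at 11173 ± 679 RPM (SD, n = 4). Neither arm of miR-423 had sample types that were apart.

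**Figure D2:**
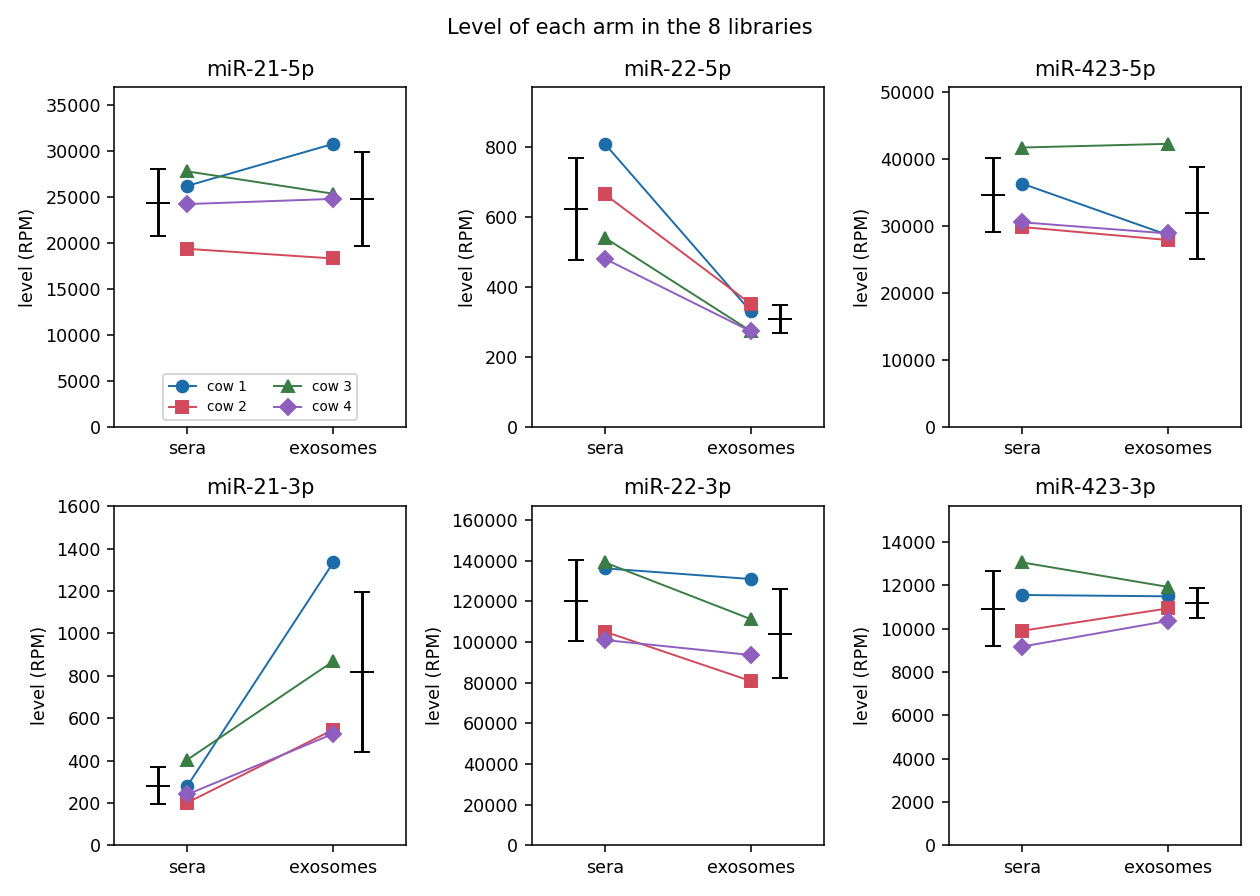
Level (RPM) of the 6 arms in sera and exosomes, with each cow joined by a line and black bars for the mean ± SD of 4 libraries. MiR-21-3p was higher in exosomes and miR-22-5p in sera in 4 of 4 cows, while the partner arms miR-21-5p and miR-22-3p overlapped between the sample types.

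Because RPM is a share of the miRNA reads, less of one miRNA and more of others cannot be told apart. Over all 365 expressed miRNAs the median log2 FC was 0.57, and over the 128 that reached 10 reads in each of the libraries it was 0.31, whereas the median of the 6 arms was 0.06. Relative to 0.31, miR-21-3p stood at -1.79, miR-22-5p at 0.69, and the other 4 arms between -0.35 and -0.09. Calls were made with limma at an FDR under 0.05 and a log2 FC over 1 or under -1. MiR-22-5p was 1 of 11 miRNAs called higher in sera (3.01% of 365) and miR-21-3p was 1 of 5 called higher in exosomes (1.37%). The other 4 arms were not called. The libraries of the sample types did not overlap for these 2 of the 6 arms and for 14.2% of all 365 miRNAs. The arms had been chosen with this contrast known, so no p-value is given for them and nothing is read from these counts.

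The call of miR-21-3p was lost without the serum of cow 2 (log2 FC of -1.33), without that of cow 4 (-1.42) and without both libraries of cow 1 (-1.22). MiR-22-5p lay at the limit of fold change. Its call was lost without the serum of cow 1 (0.87) or cow 2 (0.96), without the exosomes of cow 3 or of cow 4 (0.95 each), without both libraries of cow 1 (0.90), with edgeR (0.81) and with DESeq2 (0.69).

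**Figure D3:**
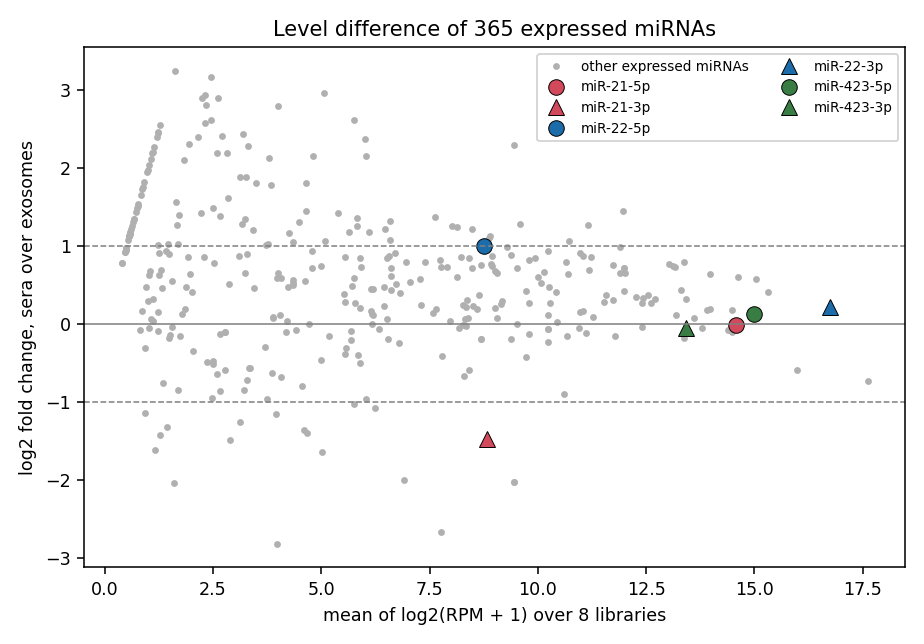
Log2 FC of sera over exosomes against the mean log2(RPM + 1) over 8 libraries for 365 expressed miRNAs (grey), with the 5p (circles) and 3p arms (triangles) of the 3 hairpins in colour and dashed lines at the limits of 1 and -1. MiR-21-3p lies at -1.48 and miR-22-5p at 1.001, and the other 4 arms lie among the abundant miRNAs near 0.

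In the sequencing depth available, only 6 hairpins had at least 10 reads of both arms in every library. Besides the 3 hairpins described, these were miR-126 (endothelial cells and platelets), miR-142 (blood cells) and miR-151. Their differences in the log2 arm ratio, sera minus exosomes within cows, were -0.07 ± 0.31, -0.35 ± 0.44 and 0.10 ± 0.44 (SD, n = 4 cows), each smaller than its spread between cows. The means of miR-21 and miR-22 were above these. That of miR-423 (0.17 ± 0.22, SD, n = 4 cows) lay within the values of single cows for miR-151, which ran from -0.54 to 0.48. The hairpins described were chosen with this contrast known, so their place among the 6 is a description only. By limma with the cow as a block, with the limits given above applied to the difference in log2 ratio, 1 of the 6 hairpins was called (16.7%), which was miR-21. The libraries of sera and exosomes did not overlap in 1 of 6 (16.7%), again miR-21. With so few hairpins, 3 of them chosen, these shares are not a measure of how common such differences are.

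**Figure D4:**
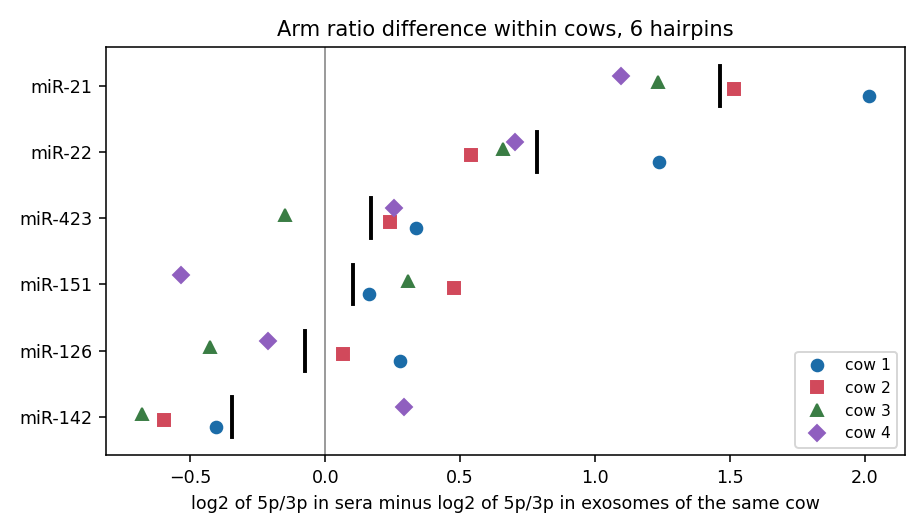
Difference in the log2 of 5p over 3p, sera minus exosomes of the same cow, for the 6 hairpins with at least 10 reads of both arms in every library. Symbols are cows and black lines are means. All 4 cows lie above 0 for miR-21 (1.10 to 2.01) and miR-22 (0.54 to 1.24), and the cows lie on both sides of 0 for miR-423, miR-151, miR-126 and miR-142.

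Among these 6 hairpins, the arm ratios of miR-21 and miR-22 over the 8 libraries were most like each other (Pearson r = 0.84 across libraries, which share cows and sample types). The next for miR-21 was miR-423 (r = 0.48) and then miR-126 (r = 0.15). For miR-22 they were miR-423 (r = 0.15) and miR-142 (r = 0.13), and for miR-423 they were miR-21, miR-126 (r = 0.39) and miR-151 (r = 0.22). The lesser arm is 3p in miR-21 and 5p in miR-22, so their lesser arms moved in opposite directions. The mean share of miR-21-3p was 1.13% in sera and 3.11% in exosomes, and that of miR-22-5p 0.520% and 0.305%. In level, the miRNAs most like miR-21-3p among 127 others that reached 10 reads in each library were miR-328 (r = 0.88) and the pair miR-339a and miR-339b (r = 0.86), which have the same values in every library. In sera miR-328 was at 88.7 ± 32.3 RPM, against 554 ± 134 RPM in exosomes (SD, n = 4). The miRNAs most like miR-22-5p were miR-32 (r = 0.90), miR-320a (r = 0.88) and miR-106b (r = 0.87). MiR-106b, of the miR-17 seed family, was at 1672 ± 289 RPM in sera, against 868 ± 39.6 RPM in exosomes (SD, n = 4). These r describe 8 libraries, include the difference between sample types that was known beforehand, and were not tested.

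The levels of miRNAs typical of blood cells and tissues were summed per library. The 4 erythrocyte miRNAs (miR-451, miR-486, miR-144 and miR-363) summed to 154769 to 239033 RPM in sera, and in exosomes to 195412 to 384867 RPM. This sum was mostly miR-486, which was higher in exosomes in 4 of 4 cows. MiR-144 and miR-363 were lower in exosomes in 4 of 4 cows, and miR-451 was higher in exosomes in 2 of 4. The 4 platelet miRNAs (miR-223, miR-126-3p, miR-126-5p and miR-197) summed to 14144 to 20606 RPM in sera, and in exosomes to 8756 to 12371 RPM, without overlap. MiR-126-5p made up most of this sum, and miR-197 went the other way. Sera held 41.2 to 58.3 RPM of miR-197, and exosomes held 49.4 to 202.7 RPM, the higher of the pair in 4 of 4 cows. The 5 leukocyte miRNAs summed to 28234 to 36573 and 30428 to 44132 RPM, the 3 liver miRNAs to 31775 to 57838 and 22218 to 57480 RPM, and the 6 epithelial miRNAs to 2159 to 4214 and 1287 to 3354 RPM. The liver sum was almost entirely miR-192, and miR-122 lay at 0 to 108.4 RPM. MiR-142-5p formed most of the leukocyte sum, and miR-141 with miR-205 most of the epithelial sum. Among the leukocyte miRNAs, miR-155 and miR-146a were lower in exosomes in 4 of 4 cows. The direction of miR-150 and of both arms of miR-142 varied by cow. Reads were found for all members of these 5 lists, and 1 erythrocyte miRNA (miR-144) and 1 epithelial miRNA (miR-200a) were called, both higher in sera. The part of these miRNAs, of depth and of extraction in the differences of the arms was not tested.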

How the data were processed

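Reads of low quality were removed by the authors with CASAVA 1.8, and sRNAbench was used to trim adaptors, to align each library to the bovine entries of miRBase and to compute RPM. The deposited RPM, 1 table per library, summed to the same total in each library. Whole reads were recovered from the step of 1 read (100% of values within 0.06 RPM). Replicate numbers were taken as cows. The paper states that sera and exosomes came from the same cows, and the match of numbers between sample types is inferred from the titles. Over 128 miRNAs, deviations from the mean of the sample type correlated at 0.74 to 0.86 within cows and at -0.24 on average between cows. The highest between cows was 0.19. Centring on the mean of 4 libraries pulls the values between cows below 0, so the negative average is not read as a result.

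Levels were fitted with limma (trend) on log2(RPM + 1) over 365 miRNAs with more than 1 RPM in at least 2 libraries of either sample type, without a block. Arm ratios, log2((5p + 1)/(3p + 1)) in RPM, were fitted with limma and the cow as a block. FDR is Benjamini-Hochberg. A difference in fold change understates the change of low miRNAs. Pseudocounts, filters, edgeR and DESeq2 on recovered reads, blocks and left-out libraries were alternatives, and in the quasi-likelihood test of edgeR 6 miRNAs were called in sera and 8 in exosomes. The fits were also run on simulated reads with planted changes. These had no differences between cows, so they do not test how the fits handle the pairing. The miRNAs, lists and rules were chosen with earlier results of these data known. Those named are the 6 arms, the 3 most alike hairpins for each hairpin, and the 3 most alike miRNAs in level for miR-21-3p and miR-22-5p. Others named are on the marker lists, except miR-3600, miR-296 and miR-425, which were named after their values were seen. The planned naming of every hairpin with a larger difference in ratio than miR-21 was not done in full. None of the 6 hairpins compared had one. Outside them several did, most with few reads, among them miR-296 and miR-425 (-1.98 ± 1.38, SD, n = 4 cows). MiR-425-3p had 225 reads in all sera and 22 in all exosomes. The naming of miRNAs with a shared seed was not done, since no sequences were used here. P-values and standard errors of level measure the spread between libraries of a sample type, without the pairing by cow. Those of arm ratio measure the spread of the differences within cows. Limma drew each standard error toward values shared across the miRNAs or hairpins fitted, so none is the spread of the named arm or hairpin alone. For the level of miR-21-3p the standard error was 0.33 without and 0.19 with the block, and the SD of its differences within cows was 0.53. Python 3.11.15 with SciPy 1.17.1 was used, and DESeq2 1.42.0, edgeR 4.0.16 and limma 3.58.1 were run in R 4.3.3.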

Additional observations from a re-analysis of the deposited data

Results flagged for a closer look

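The level of miR-423-5p in the exosomes of cow 3, 42289 RPM, lay far from the other 3 exosome libraries, which were at 27906 to 28889 RPM. The gap to the nearest library was 0.932 of the whole range, above Dixon's 95% critical value for 4 libraries. Cow 3 also had the highest serum value, 41738 RPM. This was 1 of 18 groups of 4 libraries examined (6 levels and 3 arm ratios in each sample type). By chance about 1 in 20 such groups has a gap above the critical value.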

How the results depend on the processing

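The differences in arm ratio kept their direction under pseudocounts of 0.1 and 10, on recovered reads, without the block, and without each cow in turn, when they ranged from 1.28 to 1.59 for miR-21, 0.63 to 0.87 for miR-22 and 0.12 to 0.28 for miR-423, with 1 of 6 hairpins called each time. Without the filter on reads, 2 of 27 hairpins were called, miR-21 and miR-296. MiR-296, named after its values were seen, had a difference of opposite sign (-2.39 ± 0.51, SD, n = 4 cows). Its lesser arm is 5p, whereas that of miR-21 is 3p. In pooled reads the lesser arm of both had a larger share in exosomes than in sera. For miR-296 it was 2.58% in sera and 12.8% in exosomes, and for miR-21 1.10% and 2.92%. MiR-296-5p had 26 reads in all sera and 28 in all exosomes. Against 11 miRNAs higher in sera and 5 in exosomes, the replicate block gave 29 and 6, edgeR 6 and 8, edgeR with the replicate block 13 and 13, and DESeq2 3 and 13. Without 1 library, or without cow 1, an alternative chosen after seeing the data, the numbers were 7 to 18 in sera and 3 to 5 in exosomes, lowest in sera without the serum of cow 3 (7) and highest without the exosomes of cow 3 (18), and 3 in exosomes without the serum of cow 2 or of cow 4. The replicate block changed the call of none of the 6 arms with limma. By edgeR, edgeR with the replicate block and DESeq2, the log2 FC was -0.21, -0.22 and -0.34 for miR-21-5p, 0.018, 0.013 and -0.11 for miR-22-3p, -0.11, -0.081 and -0.23 for miR-423-5p, and -0.26, -0.25 and -0.38 for miR-423-3p. For miR-22-5p it was 0.77 by edgeR with the block and 0.69 by DESeq2, and with a pseudocount of 10 it was 0.98 and not called. The median log2 FC of the 128 miRNAs with at least 10 reads was 0.31 by limma, 0.11 by edgeR and -0.02 by DESeq2, so these values moved with the scaling. MiR-21-3p was called in 15 of 18 fits, the reported one included, with a log2 FC from -1.84 to -1.21, and miR-22-5p in 9 of 18, from 0.69 to 1.12. Depth limits miR-22-5p most, with 20 reads in the exosomes of cow 1.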
